A study of Mus musculus with 5 samples.

Results

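The genes described here are 9 genes of antigen presentation, chosen by their human symbols from a deposited table of 50867 genes. They are the class I heavy chains HLA-B, HLA-C and HLA-E, the class I light chain B2M, the class II chains HLA-DRA, HLA-DRB1, HLA-DPA1 and HLA-DPB1, and the invariant chain CD74. Total RNA was sequenced from lentivirus-infected Ba/F3, a line of mouse pro-B cells that is grown with interleukin-3. The groups were labelled S_PXT1_K118R, S_PXT1, WT_K118R, WT and PMSCV, with 1 library in each of the 5 groups. The series title names an oncogenic fusion, leukaemia of children and mRNA stability, and K118R reads as a lysine to arginine substitution. PMSCV is used as the baseline here, although the labels call no group a control. They do not spell out S and WT, and they give no age, clone, passage or number of cultures for any group. All 5 libraries share the cell line and the infection, and no difference between them has a replicate check.

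Class I molecules carry peptides from inside the cell to its surface for inspection by CD8 T cells, and consist of an HLA heavy chain joined to beta-2-microglobulin, which B2M encodes. Class II molecules are pairs of an alpha and a beta chain that carry peptides from endosomes to CD4 T cells, and CD74 holds their groove closed until it is cleaved there. Class I is made by nearly all nucleated cells, whereas class II and CD74 are made mainly by B cells, macrophages, dendritic cells and thymic epithelium. Mice carry class I and class II molecules of their own, encoded by the H2 genes, together with B2m and Cd74.

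The table counts reads on human gene models although the labels give mouse cells, so how far a mouse transcript is counted depends on its sequence. Of the 9 genes, B2M and CD74 share their symbol with a mouse gene, and the 7 HLA genes do not. Total counts ran from 250409 in S_PXT1_K118R to 351693 in WT, so that 1 read corresponded to between 2.92 and 3.93 CPM, the scaled count used for levels. The libraries labelled S_PXT1_K118R and S_PXT1 stood apart from the rest, with counts on 7044 and 7393 genes, against 11504 in WT_K118R, 11712 in WT and 11492 in PMSCV. A count of 0 was taken as up to 3 counts, which is 11.8 CPM in S_PXT1_K118R, 11.7 in S_PXT1, 8.89 in WT_K118R, 8.77 in WT and 10.7 in PMSCV. Folds written with at least rest on this limit and leave out the counting error of the other library, so their counting intervals reach nearer to 1. All intervals are 95% intervals of counting error only, since the reads carry no molecular identifiers and may be copies of 1 molecule. Genes of high sequence similarity, as the HLA genes are, can exchange reads in counting, and the counts of single HLA genes are uncertain for that reason.

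The 9 genes together were lowest in the libraries labelled S_PXT1_K118R and S_PXT1 and highest in WT_K118R. They summed to 23 counts in S_PXT1_K118R, 24 in S_PXT1, 312 in WT_K118R, 184 in WT and 138 in PMSCV. On the CPM scale these sums were 90.4 (57.3 to 136), 93.6 (59.9 to 139), 925 (825 to 1033), 538 (463 to 622) and 491 (412 to 580) in the same order of libraries. Class I heavy chains and B2M kept some reads in both S_PXT1 libraries, whereas the class II chains and CD74 had none in either. All 9 genes had reads in WT_K118R, WT and PMSCV. In bulk RNA, fewer cells that make a transcript and less of it per cell cannot be told apart.

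**Figure D1:**
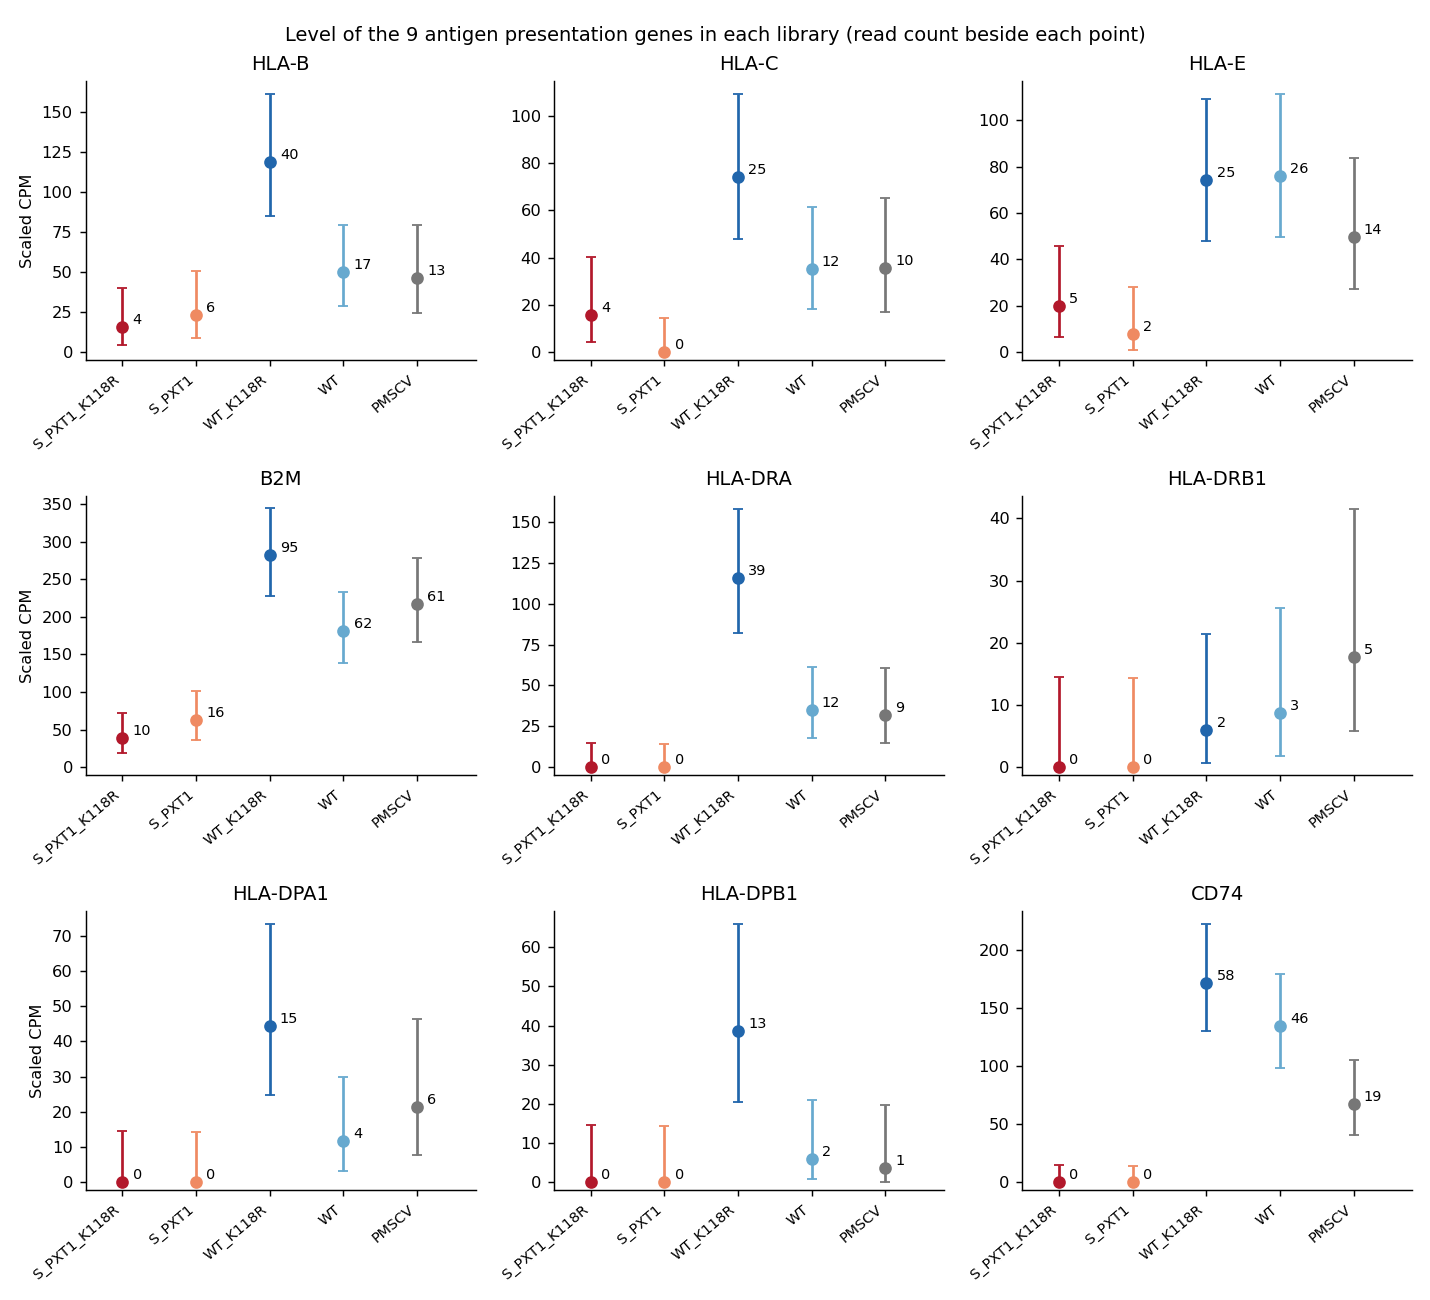
Level of each of the 9 genes in the 5 libraries, in CPM after scaling, with exact Poisson 95% intervals as bars and the read count beside each point. B2M had 10 and 16 counts in S_PXT1_K118R and S_PXT1 and 61 to 95 in the other libraries, and CD74 had 0 in both S_PXT1 libraries and 19 to 58 in the others.

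HLA-B (ENSG00000234745, chromosome 6, 31353872 to 31357188, minus strand, as the table gives it, with the build not stated in any source used here) is a classical class I heavy chain. It had 4 counts in S_PXT1_K118R, 6 in S_PXT1, 40 in WT_K118R, 17 in WT and 13 in PMSCV. WT_K118R alone was high, 2.38-fold above WT (1.32 to 4.49), and the other 3 steps in the order of libraries lay within counting error. S_PXT1_K118R was 7.54-fold lower than WT_K118R (2.73 to 29.0), while for S_PXT1 against PMSCV the interval of the 1.98-fold lower value ran from 0.70 to 6.34 and included no difference.

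HLA-C (ENSG00000204525, chromosome 6, 31268749 to 31272130, minus strand), the other classical heavy chain among the 9, had 4 counts in S_PXT1_K118R, 0 in S_PXT1, 25 in WT_K118R, 12 in WT and 10 in PMSCV. It was thus highest in WT_K118R and near equal in WT and PMSCV. WT_K118R was 2.11-fold above WT (1.02 to 4.61), and S_PXT1 was at least 3.04-fold lower than PMSCV, with an interval that started at 2.04. HLA-E (ENSG00000204592, chromosome 6, 30489467 to 30494205, plus strand) is a less variable heavy chain that presents leader peptides of other class I chains to natural killer cells. It had 5 counts in S_PXT1_K118R, 2 in S_PXT1, 25 in WT_K118R, 26 in WT and 14 in PMSCV. It was near equal in WT_K118R and WT, with a ratio of 0.97 (0.54 to 1.76), and S_PXT1 was 9.75-fold lower than WT (2.44 to 84.8).

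The 3 heavy chains summed to 13 counts in S_PXT1_K118R, 8 in S_PXT1, 90 in WT_K118R, 55 in WT and 37 in PMSCV. WT_K118R was 1.66-fold above WT (1.17 to 2.36), and S_PXT1 was 4.22-fold below PMSCV (1.93 to 10.5) and 5.16-fold below WT (2.44 to 12.5). The 2 S_PXT1 libraries differed from each other by less than counting error, with a ratio of 1.64 (0.63 to 4.56) for S_PXT1_K118R over S_PXT1.

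B2M (ENSG00000166710, chromosome 15, 44711477 to 44718877, plus strand), the light chain that every class I heavy chain needs to reach the surface, had the most reads of the 9 genes. It had 10 counts in S_PXT1_K118R, 16 in S_PXT1, 95 in WT_K118R, 62 in WT and 61 in PMSCV, which is 39.3, 62.4, 282, 181 and 217 CPM. The libraries fell into a low pair, S_PXT1_K118R and S_PXT1, and 3 higher ones. S_PXT1 was 3.48-fold below PMSCV (1.98 to 6.46) and S_PXT1_K118R 5.52-fold below it (2.81 to 12.1). Within the low pair the ratio of S_PXT1_K118R over S_PXT1 was 0.63 (0.26 to 1.48). WT_K118R was 1.55-fold above WT (1.12 to 2.17), and WT over PMSCV was 0.84 (0.58 to 1.21).

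HLA-DRA (ENSG00000204287, chromosome 6, 32439842 to 32445046, plus strand) encodes the nearly invariant alpha chain of HLA-DR. It had 0 counts in S_PXT1_K118R and S_PXT1, 39 in WT_K118R, 12 in WT and 9 in PMSCV. WT_K118R stood 3.29-fold above WT (1.69 to 6.91) and 3.61-fold above PMSCV (1.72 to 8.48). HLA-DRB1 (ENSG00000196126, chromosome 6, 32552990 to 32589848, minus strand), its variable beta chain partner, had 0 counts in both S_PXT1 libraries, 2 in WT_K118R, 3 in WT and 5 in PMSCV. With so few reads no order of WT_K118R, WT and PMSCV could be read for HLA-DRB1, and its highest library was PMSCV, not WT_K118R. Its model overlaps that of the pseudogene HLA-DRB6 over 7033 bases of the same strand, and HLA-DRB6 was at 0 in all 5 libraries.

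HLA-DPA1 (ENSG00000231389, chromosome 6, 33064569 to 33080775, minus strand) and HLA-DPB1 (ENSG00000223865, chromosome 6, 33075926 to 33087201, plus strand) encode the alpha and beta chains of HLA-DP. Their models overlap by 4850 bases on opposite strands, and since no source used here gives the strand setting of the counting, reads from that stretch cannot be assigned with certainty. HLA-DPA1 had 0 counts in both S_PXT1 libraries, 15 in WT_K118R, 4 in WT and 6 in PMSCV. HLA-DPB1 had 0 counts in both S_PXT1 libraries, 13 in WT_K118R, 2 in WT and 1 in PMSCV. Both were highest in WT_K118R, HLA-DPA1 3.80-fold above WT (1.21 to 15.7) and HLA-DPB1 6.59-fold (1.49 to 60.1).

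The 4 class II chains summed to 0 counts in S_PXT1_K118R and in S_PXT1, 69 in WT_K118R, 21 in WT and 21 in PMSCV. S_PXT1_K118R was at least 17.3-fold lower than WT_K118R, S_PXT1 at least 5.25-fold lower than WT, and S_PXT1 at least 6.39-fold lower than PMSCV. The counting intervals of these folds started at 13.7, 3.91 and 4.75, in that order. WT_K118R was 3.33-fold above WT (2.02 to 5.72) and 2.74-fold above PMSCV (1.66 to 4.70). WT over PMSCV was 0.82 (0.43 to 1.58), a difference within counting error.

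CD74 (ENSG00000019582, chromosome 5, 150401637 to 150412929, minus strand), the invariant chain, had 0 counts in S_PXT1_K118R and S_PXT1, 58 in WT_K118R, 46 in WT and 19 in PMSCV. The S_PXT1 libraries were the lowest, as for the class II chains, but WT stood with WT_K118R rather than with PMSCV. WT was 1.99-fold above PMSCV (1.14 to 3.60), WT_K118R was 2.54-fold above PMSCV (1.49 to 4.52), and WT_K118R over WT was 1.28 (0.85 to 1.92). S_PXT1 was at least 5.78-fold lower than PMSCV, and S_PXT1_K118R at least 14.6-fold lower than WT_K118R, with intervals that started at 4.26 and 11.5.

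The deposited FPKM values divide each count by a length per gene, which no source used here gives. In WT_K118R, B2M had 95 reads and 21.4 FPKM, and HLA-DRA had 39 reads and 68.2 FPKM. The order of genes by FPKM thus rests on that length and is not a ranking of expression. HLA-DRA had the highest FPKM of the 9 genes in WT_K118R, WT and PMSCV, at 68.2, 20.7 and 20.5. In WT and PMSCV this rested on 12 and 9 reads, and its lead over the next gene was within counting error. HLA-DRB1, the partner of HLA-DRA, had 2.85, 4.23 and 9.30 FPKM in WT_K118R, WT and PMSCV, from 2 to 5 reads. CD74 was second in WT_K118R and WT, at 25.7 and 20.2 FPKM, and B2M was second in PMSCV, at 17.9 FPKM. In S_PXT1_K118R the highest FPKM was that of HLA-E, at 5.04 from 5 reads, and in S_PXT1 that of B2M, at 4.84 from 16 reads.

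The comparisons of the groups are described next against all genes of the table. A gene was called higher or lower when 2 libraries differed by 2-fold in CPM after adding 1 CPM to each, and 13352 genes with a mean of at least 1 CPM, all 9 among them, entered. In the WT background the K118R library was compared with the unsubstituted one. HLA-B, HLA-C, HLA-DRA, HLA-DPA1 and HLA-DPB1 were higher with WT_K118R, so 5 of the 9 were called higher and 0 lower, against 19.2% of all genes called higher and 20.9% called lower. The counting interval lay wholly above 1 for 6 of the 9, the same 5 and B2M, and below 1 for 0, against 4.15% above and 5% below of the 5536 genes whose total count, 10 to 244 reads over the 5 libraries, lay within the range of the 9. The median log2 ratio was 1.06 over the 9 genes and 0.01 over all genes. The same 5 genes were at least 2-fold above PMSCV as well, which uses the WT_K118R library again, whereas 8.49% of all genes were 2-fold higher in WT_K118R than in both WT and PMSCV. Against PMSCV the interval left out 1 for HLA-B, HLA-DRA and HLA-DPB1 of these 5, and it included 1 for HLA-C at 2.08 (0.97 to 4.86) and for HLA-DPA1 at 2.08 (0.76 to 6.55).

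In the S_PXT1 background, S_PXT1_K118R was compared with S_PXT1. HLA-C, with 4 counts against 0, and HLA-E, with 5 against 2, were called higher and 0 of the 9 lower, against 15.2% of all genes called higher and 17.6% called lower. The interval left out 1 for 0 of the 9, against 2.62% of genes in that range with an interval above 1 and 2.75% with one below, so at this depth no difference between these libraries was detectable for any of them. For the 5 genes at 0 counts in both libraries there is no ratio to compare.

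The S_PXT1 libraries were compared with their WT counterparts and with PMSCV. Without the substitution, 9 of 9 genes were called lower in S_PXT1 than in WT, where 42.5% of all genes were, and the interval lay wholly below 1 for 5 of them, against 14.5% of genes in the same range of total counts. With the substitution, 9 of 9 were called lower in S_PXT1_K118R than in WT_K118R, where 44% of all genes were, and the interval lay wholly below 1 for 8, against 15.2% of genes in that range. The exception was HLA-DRB1, with 0 counts against 2. These 2 comparisons share no library. Against PMSCV, 8 of 9 were called lower in S_PXT1, where 43.8% of all genes were, and the interval lay wholly below 1 for 6, against 16.9% of genes in that range. HLA-B was the exception to the call, with 6 counts against 13. This comparison shares the S_PXT1 library with the one against WT and does not measure it again.

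The median log2 ratio of the 9 genes was -3.29 for S_PXT1 over WT, -2.84 for S_PXT1_K118R over WT_K118R and -4.23 for S_PXT1 over PMSCV, beside -0.48, -0.49 and -0.56 for all genes and -0.76, -0.82 and -0.83 for genes in the range of total counts. Those of the 9 at 0 counts enter these medians with the added 1 CPM, so their ratios are not bounds. CD74, HLA-DRA, HLA-DPA1, HLA-DRB1 and HLA-DPB1, 5 of the 9, had 0 counts in both S_PXT1 libraries, whereas 15.3% of the 5773 genes with at least 10 counts over WT_K118R, WT and PMSCV did so. With a minimum of 20 counts the share was 3 of 7 members, against 6.69% of genes. For WT over PMSCV, 0 of the 9 were called in either direction, while 20.3% of all genes were called higher and 23.2% lower. CD74 was the 1 gene whose interval left out 1, on the higher side, against 3.36% of genes in the range of total counts with an interval above 1 and 4.44% with one below.

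**Figure D2:**
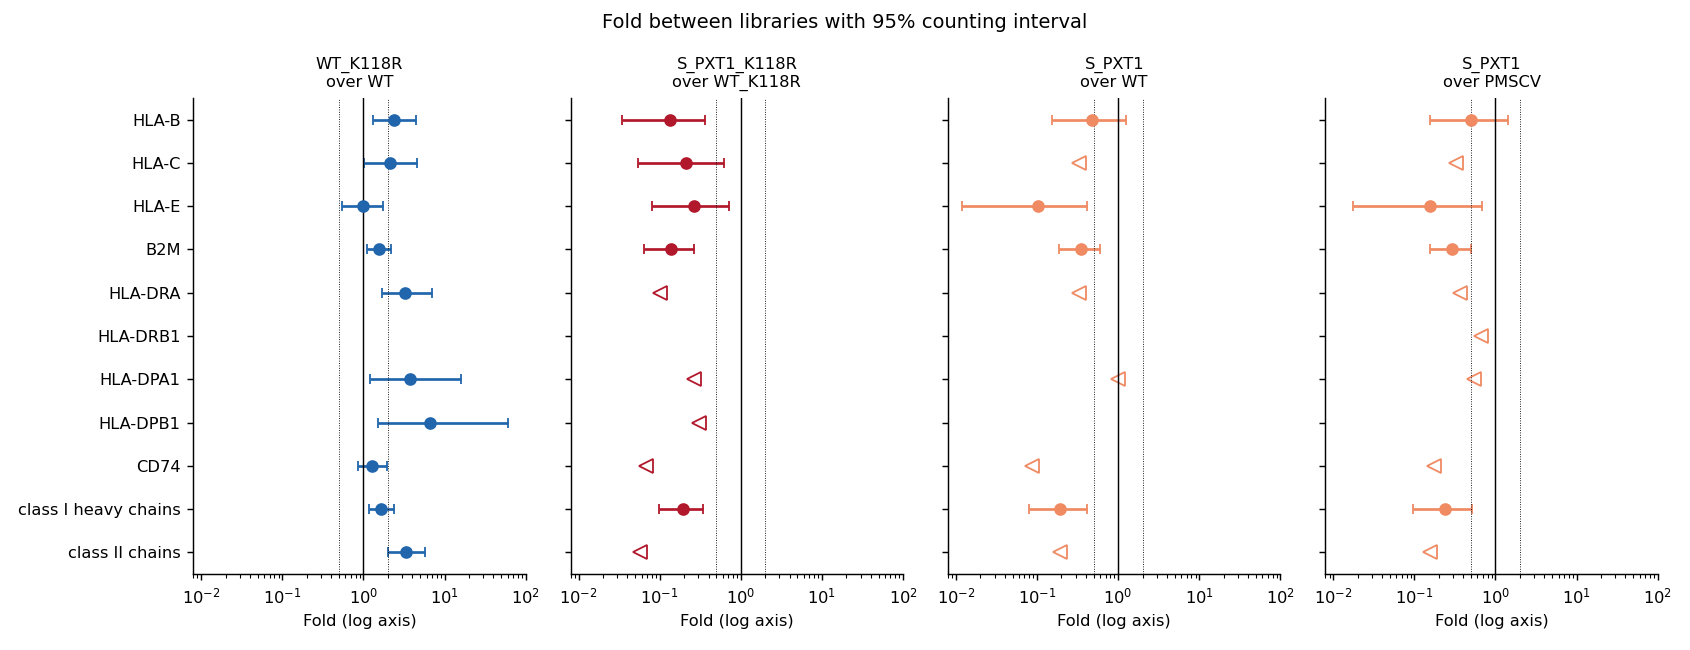
Fold of each of the 9 genes, the 3 summed class I heavy chains and the 4 summed class II chains in 4 comparisons, on a log axis. Filled points are ratios with their 95% counting interval, open triangles are bounds that point towards lower values where the library on top had 0 counts, no symbol means that both libraries had 3 counts or fewer, and dotted lines mark 2-fold. WT_K118R lay above WT for the class II sum at 3.33, and the values of S_PXT1_K118R lay below 1 for each ratio shown against WT_K118R.

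Other HLA genes were sparser. Of 12 further HLA genes, 9 had a read in any library. HLA-DMB, a chain of the exchange factor that loads class II, and HLA-F, a non-classical class I chain, had 6 counts each in WT_K118R and 0 in both S_PXT1 libraries. HLA-DQB1, a class II beta chain, had 3 counts in WT and 3 in PMSCV and 0 in the other libraries.

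The genes that load class I molecules had reads in every library as a sum. Of 14, 6 had a count in S_PXT1_K118R and 8 in S_PXT1, against 11 in WT_K118R, 10 in WT and 11 in PMSCV. The 14 of them summed to 113 counts in S_PXT1_K118R, 114 in S_PXT1, 228 in WT_K118R, 193 in WT and 198 in PMSCV, and S_PXT1 over PMSCV was 0.63 (0.50 to 0.80). Of the 12 that entered, 5 were called lower and 0 higher in S_PXT1 than in PMSCV, with a median log2 ratio of -0.68, and that share is near the 43.8% of all genes called lower. Most of these reads fell on CANX and CALR, lectin chaperones of the endoplasmic reticulum that serve many glycoproteins. CANX had 32 counts in S_PXT1_K118R, 42 in S_PXT1, 68 in WT_K118R, 71 in WT and 66 in PMSCV, and CALR had 50, 33, 64, 51 and 65 in the same order. PDIA3, an oxidoreductase of the loading complex, had 10, 11, 26, 27 and 27 counts, and PSME2, a proteasome activator subunit, had 11, 15, 22, 23 and 18. TAP1, a subunit of the peptide transporter, and TAPBP, the tapasin that bridges it to class I, were counted in WT_K118R, at 9 and 12 reads, in WT, at 5 and 4, and in PMSCV, at 6 and 3, and at 0 in both S_PXT1 libraries. TAP2, the partner of TAP1, had 3 counts in S_PXT1_K118R, 2 in S_PXT1, 11 in WT_K118R, 0 in WT and 3 in PMSCV, and PSME1, the other proteasome activator subunit, had 7, 8, 8, 5 and 5. These 4 were picked after their values were seen.

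Genes of class II processing were lowest in the S_PXT1 libraries. The 11 of them summed to 22 counts in S_PXT1_K118R, 11 in S_PXT1, 107 in WT_K118R, 81 in WT and 93 in PMSCV, and S_PXT1 over PMSCV was 0.13 (0.063 to 0.24). Of the 11, all of which entered, 9 were called lower and 0 higher in S_PXT1 than in PMSCV, where 43.8% of all genes were called lower, with a median log2 ratio of -3.54. CTSB and CTSD, lysosomal proteases of many cell types, had 11 and 6 counts in S_PXT1_K118R, 3 and 2 in S_PXT1, 34 and 25 in WT_K118R, 32 and 13 in WT, and 42 and 15 in PMSCV. LGMN, an asparaginyl protease of endosomes, had 2, 5, 11, 10 and 10 counts in that order of libraries, and AP1S1, an adaptor subunit of vesicle traffic, had 0, 0, 6, 7 and 5. For WT_K118R over WT the sum was 1.34-fold higher (0.99 to 1.81), with 3 of 11 genes called higher and 1 lower, against 19.2% and 20.9% of all genes.

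Regulators of these genes were led by factors of broad function. CREB1, a general transcription factor that also sits on class II promoters, had 65 counts in S_PXT1_K118R, 74 in S_PXT1, 69 in WT_K118R, 85 in WT and 41 in PMSCV, and NFYB, a CCAAT-binding subunit, had 8, 16, 18, 16 and 15. The 13 regulators summed to 80 counts in S_PXT1_K118R, 108 in S_PXT1, 155 in WT_K118R, 135 in WT and 103 in PMSCV. CIITA, the transactivator on which class II transcription depends, and NLRC5, its class I counterpart, were also looked up by name after their values were seen. CIITA had 5 counts in WT_K118R and 1 in WT, NLRC5 had 4 in WT_K118R and 1 in PMSCV, and both were at 0 elsewhere. Of the 12 regulators that entered, 4 were called higher and 2 lower in WT_K118R than in WT, against 19.2% and 20.9% of all genes, with a median log2 ratio of 0.63.

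The HLA genes could be set beside their neighbours in the genome. From the first to the last symbol that starts with HLA-, chromosome 6 from 29722775 to 33143325 in the coordinates of the table, there were 36 HLA rows and 212 other rows. The other rows summed to 2747 counts in S_PXT1_K118R, 3051 in S_PXT1, 3679 in WT_K118R, 4071 in WT and 2635 in PMSCV. The summed level of these neighbours differed less between the libraries than that of the HLA genes, with 0.990 for S_PXT1_K118R over WT_K118R (0.942 to 1.04) and 0.999 for S_PXT1 over WT (0.953 to 1.05). The 36 HLA rows together gave 0.14 (0.084 to 0.22) and 0.21 (0.12 to 0.36) in the same 2 comparisons, so the intervals of HLA rows and neighbours do not overlap. For S_PXT1 over PMSCV the HLA rows gave 0.24 (0.13 to 0.40) and the neighbours 1.27 (1.20 to 1.34). For WT_K118R over WT the HLA rows gave 1.92 (1.51 to 2.45) and the neighbours 0.92 (0.88 to 0.96), which again do not overlap. Most reads of the neighbours fell on PRRC2A, which encodes a proline-rich RNA-associated protein and had 1631, 1864, 2099, 2348 and 1464 counts in S_PXT1_K118R, S_PXT1, WT_K118R, WT and PMSCV, and on DDX39B, an RNA helicase, with 439, 485, 591, 666 and 386. Without these 2 genes the neighbours gave 0.908 for S_PXT1_K118R over WT_K118R (0.822 to 1.002), 0.885 for S_PXT1 over WT (0.804 to 0.975), 0.980 for S_PXT1 over PMSCV (0.884 to 1.09) and 0.948 for WT_K118R over WT (0.869 to 1.04). Many neighbours of few reads did fall to 0 in the S_PXT1 libraries: 34 of the 212 rows had a count in S_PXT1_K118R and 35 in S_PXT1, against 64 in WT_K118R, 63 in WT and 64 in PMSCV. Of the 36 HLA rows, 4 had a count in S_PXT1_K118R, 3 in S_PXT1, 13 in WT_K118R, 14 in WT and 13 in PMSCV.

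Markers of macrophages and of T and natural killer cells were, like the class II chains, lowest in the S_PXT1 libraries. Of 16 macrophage and dendritic cell markers, 12 had a read in any library. They summed to 7.86 CPM in S_PXT1_K118R, 0 in S_PXT1, 169 in WT_K118R, 117 in WT and 107 in PMSCV. TYROBP, AIF1, CD1C and CLEC9A of this list were at 0 in all 5 libraries. In WT_K118R, WT and PMSCV, LYZ had 10, 5 and 4 counts and C1QB had 9, 4 and 2. CD163 had 6, 8 and 7 in that order, and MRC1 had 4, 6 and 3. C1QC had 8, 1 and 3, C1QA 3, 6 and 2, CD68 1, 3 and 4, and CD14 1, 2 and 2. FCGR3A had 12, 0 and 0, CSF1R 2, 1 and 0, and ITGAX 1, 4 and 0. FCER1G had 0, 0 and 3, and 2 in S_PXT1_K118R. Of 13 T and natural killer cell markers, which summed to 12 counts in WT_K118R, 13 in WT and 11 in PMSCV, none had a read in either S_PXT1 library. However, 5 of the 13 were at 0 in all 5 libraries, and the highest total was 11 reads, for IL7R. Of the 6 that entered, 3 were called lower in S_PXT1 than in PMSCV, near the 43.8% of all genes. For S_PXT1 against WT, 5 of the 6 were called lower, where 42.5% of all genes were. Genes of so few reads show little by being at 0. Neither list differed beyond counting error for WT_K118R over WT, at 1.44 (0.95 to 2.22) for the macrophage and dendritic cell list and 0.94 (0.39 to 2.22) for the T and natural killer cell list. The part of such cells in the HLA and CD74 counts was not tested.

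Markers of B cells and plasma cells had another order. The 19 of them summed to 7.86 CPM in S_PXT1_K118R, 11.7 in S_PXT1, 80.0 in WT_K118R, 1363 in WT and 2493 in PMSCV, so WT_K118R, the library in which the class II chains were highest, stood at 0.059 of WT (0.038 to 0.087). Immunoglobulin genes supplied most of these reads, and IGHG1 had 2, 1, 10, 238 and 310 counts in S_PXT1_K118R, S_PXT1, WT_K118R, WT and PMSCV. CD22, CD79A, CD79B, VPREB1 and IGLL1, which mark the B lineage that the labels name, were at 0 in all 5 libraries on these human models. Squamous epithelium markers summed to 0 counts in both S_PXT1 libraries, 534 in WT_K118R, 1056 in WT and 309 in PMSCV. Prostate epithelium markers summed to 0 counts in S_PXT1_K118R, 2 in S_PXT1, 195 in WT_K118R, 202 in WT and 198 in PMSCV. WT was highest for the squamous list, of which KRT4 and KRT13 had 0 and 1 counts in WT_K118R, 262 and 266 in WT and 14 and 9 in PMSCV. KRT6A and KRT5 of the same list were highest in WT_K118R, as the HLA sum was. For the prostate list WT_K118R over WT was 0.98 (0.80 to 1.20).

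Fibroblast and endothelial markers summed to 200 reads in S_PXT1_K118R, 187 in S_PXT1, 593 in WT_K118R, 498 in WT and 460 in PMSCV. In S_PXT1_K118R and S_PXT1 most of these fell on COL1A1, at 91 and 100, and COL3A1, at 95 and 73. COL1A2 had 4 and 3 there, against 102 in WT_K118R, 68 in WT and 90 in PMSCV. The endothelial markers PECAM1, VWF, CDH5 and CLDN5 had 0 in both S_PXT1 libraries, and CDH5 and CLDN5 had 0 in all 5. Smooth muscle markers summed to 6 counts in S_PXT1_K118R, 1 in S_PXT1, 21 in WT_K118R, 340 in WT and 79 in PMSCV. A list of 20 human genes that, as background, have no single counterpart in the mouse was used beside the HLA genes. They summed to 5 counts in S_PXT1_K118R, all of them on IL32, 0 in S_PXT1, 115 in WT_K118R, 93 in WT and 104 in PMSCV. KLK3, a prostate protease, led this list with 71 counts in WT_K118R, 62 in WT and 51 in PMSCV. S_PXT1 was at least 31.6-fold lower than PMSCV for the sum of this list, and WT_K118R over WT was 1.25 (0.95 to 1.67). The origin of the reads on these models and on the HLA models was not tested, and an effect of the S_PXT1 construct cannot be told apart from anything else that the 2 S_PXT1 libraries share.

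Genes known from Ba/F3 and blood progenitors had reads in every library as a sum, but 6 of the 10 were at 0 in S_PXT1_K118R and 6 in S_PXT1. In WT_K118R 4 were at 0, in WT 3 and in PMSCV 2. The list of 10 summed to 221 counts in S_PXT1_K118R, 447 in S_PXT1, 222 in WT_K118R, 409 in WT and 292 in PMSCV. GATA2, a transcription factor of early blood cells, had the most reads over the 5 libraries, with 84 counts in S_PXT1_K118R, 202 in S_PXT1, 123 in WT_K118R, 128 in WT and 96 in PMSCV. SPI1, the PU.1 factor of myeloid and B cells, had 128 counts in S_PXT1_K118R, 139 in S_PXT1, 1 in WT_K118R, 173 in WT and 113 in PMSCV. BCL2L1, an inhibitor of apoptosis, had 8, 100, 90, 89 and 73 counts in that order. SPI1 was thus near absent in the library in which the HLA sum was highest, and IL3RA, the interleukin-3 receptor alpha chain, was at 0 in all 5.

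**Figure D3:**
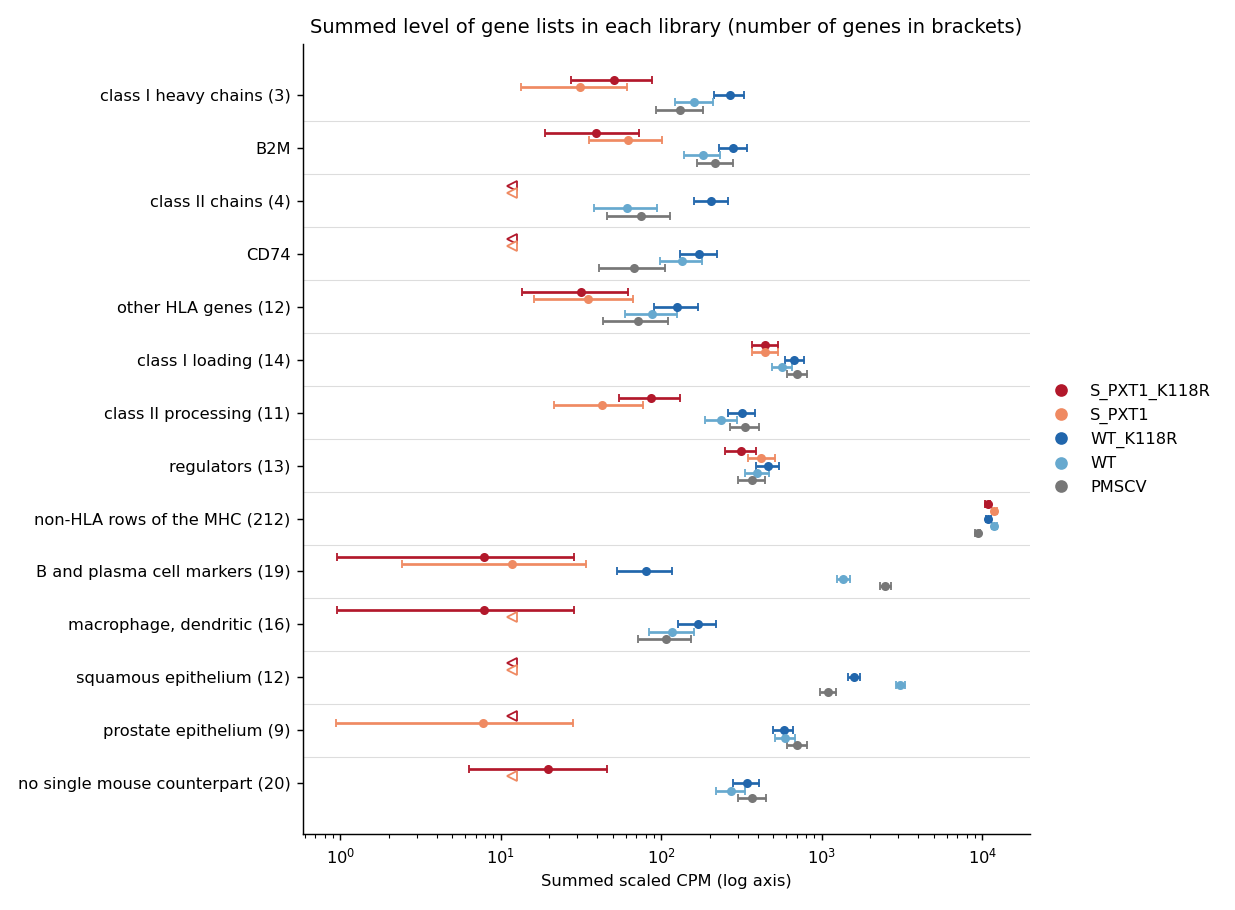
Summed CPM of the members and of the other gene lists in each library, on a log axis, with 95% Poisson intervals. Open triangles stand at the limit of 3 counts where the sum was 0. The class II chains and CD74 were at 0 in both S_PXT1 libraries, whereas the 212 other rows of the HLA stretch lay between 9370 and 11906 CPM in all 5.

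The pattern of the 7 HLA genes over the libraries was described by the share of their summed CPM in each. These shares were 5.20% in S_PXT1_K118R, 3.18% in S_PXT1, 48.0% in WT_K118R, 22.6% in WT and 21.0% in PMSCV. The distance of another gene was taken as the sum of the differences in share over those libraries in which its own share was the larger, which is 0 for the same pattern and 1 for no library in common. Among the members CD74 lay at a distance of 0.13 and B2M at 0.12, and HLA-DRB1, with 10 reads in all, was the farthest at 0.38. The median over 2314 genes with at least 50 counts was 0.33.

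Among those 2314 genes, the nearest 10 over these 5 libraries were MYL12A, KRT6A, PRPF4, CTTN, FN1, SOD2, KRT5, CUEDC2, UBE2G1 and MPRIP, at distances of 0.066 to 0.12. MYL12A, a myosin regulatory light chain, had 2 counts in S_PXT1_K118R, 1 in S_PXT1, 23 in WT_K118R, 13 in WT and 12 in PMSCV. KRT6A and KRT5, which encode keratins of stratified epithelia, had 176 and 161 counts in WT_K118R, 83 and 106 in WT, 58 and 76 in PMSCV, and 0 in both S_PXT1 libraries. FN1, the matrix protein fibronectin, had 3 counts in S_PXT1_K118R, 10 in S_PXT1, 204 in WT_K118R, 60 in WT and 74 in PMSCV. SOD2, a mitochondrial superoxide dismutase, had 3, 2, 24, 17 and 7 counts in that order. With 1 library a group this likeness rests on 5 points that share their depth and scaling.

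**Figure D4:**
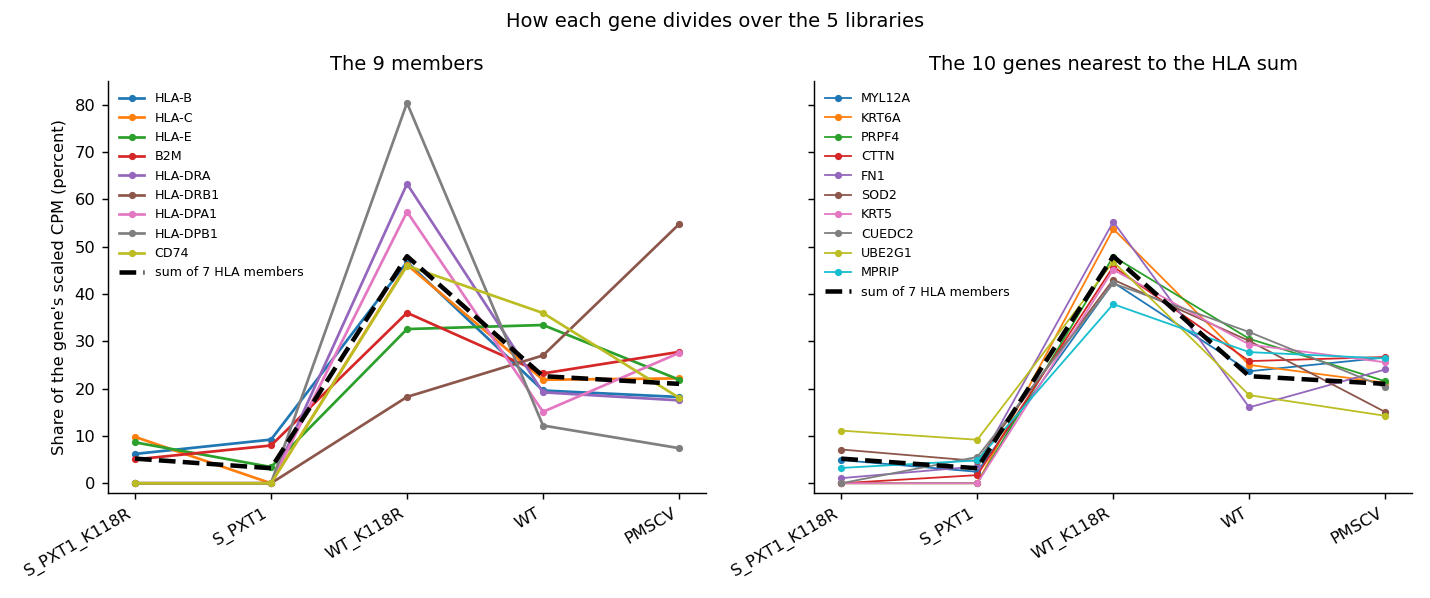
Share of each gene's CPM, in percent of its sum over the 5 libraries, for the 9 genes (left) and for the 10 genes nearest to the 7 summed HLA genes (right). The dashed line is that sum, which holds 48.0% of its CPM in WT_K118R, and the lines join libraries only to guide the eye.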

How the data were processed

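Per the file headers, the deposited table holds raw counts and FPKM values for all 5 libraries, and the authors' FPKM equalled the count over 1 length per gene and 1 factor per library for at least 99.98% of the values compared, within 0.01 on the log2 scale. The tools cutadapt 1.9, FastQC and HISAT2 2.2.1 are listed in the submitters' processing notes without what each did. No source used here names the counting tool, the strand setting, the build or the annotation. There were 0 value columns without a library. Normalization factors came from edgeR 4.0.16 (TMM, R 4.3.3), and CPM are counts over the scaled library size. Folds of genes and sums were taken on scaled counts with the exact 95% interval of a ratio of 2 counts, and levels carry exact Poisson intervals (scipy 1.17.1). A library at 0 was set to 3 counts for a fold written as "at least", and no fold is given where both libraries had 3 counts or fewer. With 1 library a group no test was made. Calls needed a mean of 1 CPM over the libraries and 2-fold after adding 1 CPM. The calls and the interval were also run on simulated Poisson counts, and the outcome is not given here. That run was limited to mean counts of 20 or more. It therefore cannot decide how calls behave for members with fewer reads, such as HLA-DRB1 and HLA-DPB1 with totals of 10 and 16. The members and lists were chosen with earlier results of these data known. All members are named, from each list up to 4 genes with the most reads, and others where stated, and some genes of the lists are not reported here. The background of genes in the members' range of total counts was added after values were seen. Alternatives were DESeq2 1.42.0 size factors, total counts, FPKM, other pseudocounts and other filters.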

Additional observations from a re-analysis of the deposited data

Results flagged for a closer look

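The ratio of the K118R library to the unsubstituted one lay on opposite sides of 1 in the S_PXT1 and WT backgrounds for 3 of the genes and for the sum of all 9, and the difference was not tested. For HLA-B it was 0.67 in S_PXT1 and 2.38 in WT, so that the first was 0.28 of the second. For B2M it was 0.63 and 1.55, a quotient of 0.41. For HLA-E it was 2.52 and 0.97, a quotient of 2.59, with 5 counts in S_PXT1_K118R and 2 in S_PXT1. For the 9 genes together it was 0.97 and 1.72, a quotient of 0.56. The interval of each S_PXT1 ratio included 1, as did that of the WT ratio of HLA-E, so no direction can be read from these.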

How the results depend on the processing

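No paired analysis was possible because each group held 1 library, and for the same reason no library could be left out of a group. No fold past 2-fold changed its direction. The 43 folds of single genes and the 11 summed folds that exist moved by less than their counting interval (1.5 times for bounds) with DESeq2 size factors and with total counts, and so did the 29 and 8 that could be taken on FPKM. HLA-B for WT over PMSCV, at 1.08 and within counting error, was 0.992 with total counts and 0.991 on FPKM, and the bound of HLA-DPA1 for S_PXT1 over WT, near 1, lay at 1.05 with DESeq2 and 1.02 with total counts. A group at 0 has no FPKM fold. Of the 9 genes, the number called for S_PXT1_K118R over S_PXT1 was 1 in place of 2 with a pseudocount of 5 CPM, and for WT over PMSCV 1 in place of 0 with a pseudocount of 0.1 CPM and with total counts. The other counts of called members stayed within 1.5 times (9 in place of 8 for S_PXT1 over PMSCV with total counts), and scaling without the S_PXT1 libraries, chosen after seeing the data like all alternatives for these counts, left 5 for WT_K118R over WT and 0 for WT over PMSCV. With total counts the log2 ratios of WT over PMSCV shifted by -0.12. The number of all genes called in either direction fell with a pseudocount of 5 CPM and with a filter at a mean of 5 CPM. These gave 2081 and 2502 in place of 4376 for S_PXT1_K118R over S_PXT1, 3292 and 1991 in place of 5354 for WT_K118R over WT, 4555 and 3574 in place of 7072 for S_PXT1_K118R over WT_K118R, 4441 and 3352 in place of 6878 for S_PXT1 over WT, 4563 and 3569 in place of 7008 for S_PXT1 over PMSCV, and 3207 and 2130 in place of 5802 for WT over PMSCV. Both weigh genes of few reads less by construction. Depth limits the members with few reads: HLA-DRB1 and HLA-DPB1 had 10 and 16 in all.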
